A study of Vigna unguiculata subsp. sesquipedalis with 24 samples.

Results

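The response of B128 roots to soil drought was taken from 3 arrays of drought-stressed roots and 3 arrays of well-watered roots, which were chosen by their source labels and make up 6 of the 24 arrays in the series. B128 is a landrace of asparagus bean, the vegetable subspecies of cowpea, and its labels call it isohydric like, a term for plants that close their stomata early and hold their leaf water potential steady. The study's own transpiration measurements describe B128 as the less conservative of the lines and B47 as the one that avoids dehydration, which does not match these labels, so the term is given only as a label. Seedlings 16 days old, growing 2 to a pot, were either left without irrigation or kept watered, and whole roots were harvested on day 15, with the roots of a pot pooled into 1 RNA sample. Each array was labelled a separate biological replicate, and no allele or transgene was involved. For comparison, 6 arrays held the roots of B47, a landrace labelled anisohydric like, drought-stressed or well-watered, and 6 held the leaves of B128, drought-stressed or well-watered.

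When soil dries, root cells lose turgor and accumulate abscisic acid (ABA), the main hormone of water deficit. ABA binds receptors of the PYR/PYL family, the bound receptors block type 2C protein phosphatases (PP2Cs), and kinases freed from these phosphatases activate transcription factors that switch on protective genes. These include genes for proline and raffinose sugars, which act as compatible solutes, and for late embryogenesis abundant (LEA) proteins, which protect cell contents in dry tissue. Roots also carry the transporters that take up water, iron, phosphate and nitrate.

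Each value was a normalized intensity per unigene, a cDNA assembly that stands for 1 transcript, summarized from 4 probes. A unigene was called up-regulated or down-regulated when its drought and well-watered means differed by at least 2-fold at a false discovery rate of at most 0.01 in limma, adjusted over 29471 unigenes. Standard errors (SE) of log2 changes came from the spread shared by all 24 arrays, with n = 3 arrays per group. No detection call came with the values, and 10% of unigenes lay below an intensity of 42.9 to 45.3 on each of the 6 arrays. Where a group lay under that level, the fold change depends on how the lowest signals were handled and is less certain in size than in direction. Intensities of different unigenes were not compared with each other, because probes differ in brightness. Descriptions were held for 2206 unigenes, and near-identical copies such as the chalcone synthase or PYL5 unigenes may share signal. In whole roots, fewer cells of a type and less RNA per cell cannot be told apart.

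The label text of the drought-stressed root arrays gave conflicting organs, root as the source and leaves in the description, so the organ was checked. Across unigenes, each drought array was correlated with single arrays of other groups and the r values averaged. These averages were 0.888 to 0.902 with well-watered B128 roots and 0.760 to 0.795 with drought-stressed B128 leaves. All 21 photosynthesis unigenes were dimmer on every drought-stressed root array than on any drought-stressed leaf array, with summed intensities of 4437 to 5137 in drought-stressed roots, 4154 to 16092 in well-watered roots and 40946 to 53452 in drought-stressed leaves. Well-watered replicate 3 gave the 16092, against 5144 and 4154 for the other two. A panel of 6 root marker unigenes summed to 5881 to 7514 in drought-stressed roots, against 65970 to 108411 in well-watered roots, and did not lie above the 6422 to 7070 of drought-stressed leaves. The panel held Fe(2+) transport protein 1, the FER-like iron deficiency factor, NIP4-2, high-affinity nitrate transporter 3.1 and peroxidase 39. On all drought arrays 3 of the 6 were higher in roots than in leaves and 2 were lower. All 6 fell under drought in B128 roots, so the panel cannot tell the organ of the drought arrays. Of 1175 unigenes at least 4 log2 units higher in well-watered roots than in well-watered leaves of B47, 1038 (88.3%) were higher on all drought-stressed B128 root arrays than on all drought-stressed B128 leaf arrays. Drought replicate 2 stood apart from replicates 1 and 3, at r = 0.978 and 0.974 against r = 0.994 between those 2 arrays, and where a list's count of called members changes without it, the count without it is given beside.

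Drought changed 21.7% of the unigenes in B128 roots, with 10.5% up-regulated and 11.2% down-regulated, and falls outnumbered rises among the deep changes. Changes of at least 3 log2 units numbered 261 up and 700 down, and those of at least 6 log2 units 34 up and 93 down. The 3 drought and 3 well-watered arrays did not overlap for 97.8% of the called unigenes, against 52.7% of all unigenes. The median change was 1.46 log2 units among up-regulated unigenes, -1.87 among down-regulated ones and 0.11 over all unigenes. The 8 yeast control entries on the array, which match no plant transcript, averaged 15.09 ± 0.20 log2 units in drought-stressed roots and 14.68 ± 0.13 in well-watered roots (SD, n = 3), a difference of 0.40 (two-sided exact permutation p = 0.1, the smallest that 3 against 3 arrays allow). Setting these entries equal lowered every change by 0.40 and the median over all unigenes to -0.29, and left 1508 up-regulated and 5170 down-regulated unigenes, 77.4% down against 51.7% as deposited. The part of this shift in the results was not tested.

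The largest rises joined a flavonoid-type enzyme, a sugar transporter and the proline pathway. A unigene named chalcone synthase family protein (UP12_18112), a family of enzymes that starts flavonoid synthesis, had intensities of 30827, 27671 and 28933 in drought-stressed roots, against 43.1, 23.6 and 32.0 in well-watered roots. Its log2 change was 9.83 (SE 0.82, adjusted p = 2.2e-08), the largest rise of all unigenes. A second one, annotated as a mutant chalcone synthase (UP12_19862), gave 17152, 17928 and 14431 in drought-stressed roots, against 22.8, 25.1 and 26.1 in well-watered roots, a log2 change of 9.38 (SE 0.66, adjusted p = 2.4e-09). Both were near or below the level of the dimmest 10% of unigenes in every well-watered root. SWEET12 (UP12_17067), a membrane carrier that lets sucrose leave cells in Arabidopsis, had 14551, 17808 and 13602 in drought-stressed roots, against 25.9, 21.7 and 21.8 in well-watered roots, a log2 change of 9.37 (SE 0.30, adjusted p = 5e-14). ATHB-12 (UP12_21526), a homeobox-leucine zipper transcription factor induced by ABA in Arabidopsis, had 10159, 16689 and 10480 in drought-stressed roots, against 31.2, 61.4 and 49.6 in well-watered roots, a change of 8.05 (SE 0.37). Other large rises were those of PAP85 (UP12_766), a vicilin-type seed storage protein in Arabidopsis, at 7.60 (SE 0.87), acidic endochitinase (UP12_1148), which cuts chitin, at 7.36 (SE 0.53), and inorganic pyrophosphatase 1 (UP12_913) at 7.28 (SE 0.36).

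**Figure D1:**
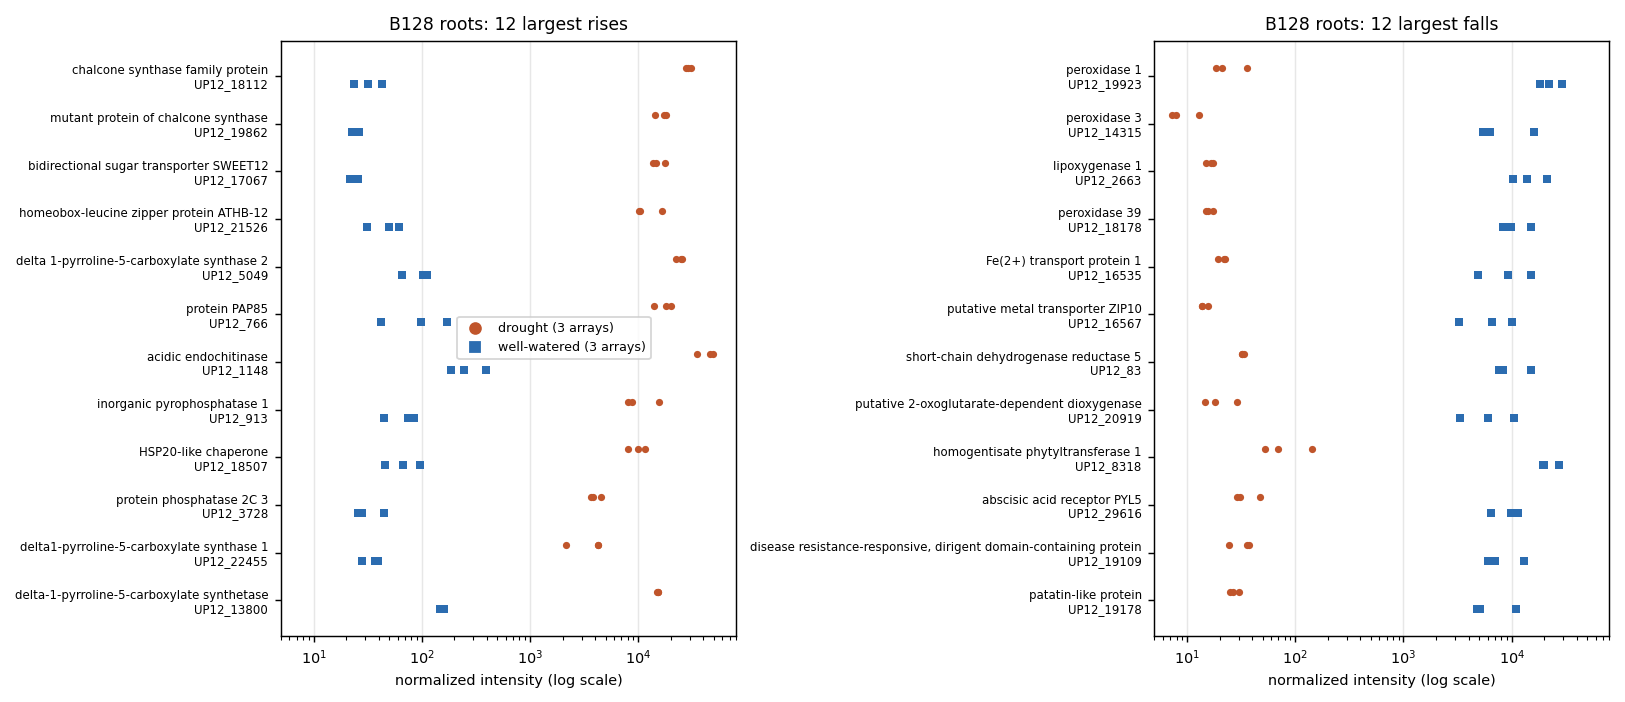
Normalized intensity (log axis) of the 12 named unigenes with the largest rise (left panel) and the 12 with the largest fall (right panel) in B128 roots, with 3 drought arrays (circles) above 3 well-watered arrays (squares) for each. The drought and well-watered arrays do not overlap for any of them, and most of the dimmer groups lie below an intensity of 100.

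The largest falls were led by peroxidases, metal transporters and a lipoxygenase. Peroxidase 1 (UP12_19923), of the secreted class III family that cross-links or loosens cell walls, had 36.1, 21.0 and 18.7 in drought-stressed roots, against 29040, 22013 and 18193 in well-watered roots, a log2 change of -9.87 (SE 0.32, adjusted p = 5.9e-14). Peroxidase 3 (UP12_14315) had 7.97, 12.8 and 7.23 in drought-stressed roots, against 16108, 6330 and 5486 in well-watered roots, a change of -9.83 (SE 0.38). Lipoxygenase 1 (UP12_2663), an enzyme that oxidizes polyunsaturated fatty acids, had 16.5, 17.2 and 14.9 in drought-stressed roots, against 21225, 13721 and 10231 in well-watered roots, a change of -9.80 (SE 0.32). In all 3 the signal of drought-stressed roots was within the dimmest 10% of the array. Short-chain dehydrogenase reductase 5 (UP12_83) fell by 8.24 log2 units (SE 0.36), a 2-oxoglutarate-dependent dioxygenase (UP12_20919) by 8.23 (SE 0.56), homogentisate phytyltransferase 1 (UP12_8318), which makes a precursor of vitamin E, by 8.09 (SE 0.48), a dirigent domain protein (UP12_19109) by 8.00 (SE 0.28) and a patatin-like protein (UP12_19178) by 7.89 (SE 0.27).

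Named unigenes were also read in 21 lists of related proteins, with 324 unigenes in all, of which 71 were up-regulated and 170 were down-regulated. The lists draw on names that the study gave in its gene tables, so they are not a cross-section of the array. Of 857 unigenes in the study's table of roots, 852 passed here, because they were chosen as changed in roots of both lines on these same arrays, and a count over them is not independent evidence. The 2029 unigenes of the leaf tables were chosen on leaf arrays, and 20.1% of them were up-regulated and 30.1% down-regulated in B128 roots. Counts over the leaf-table members of a list are given for that reason.

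**Figure D2:**
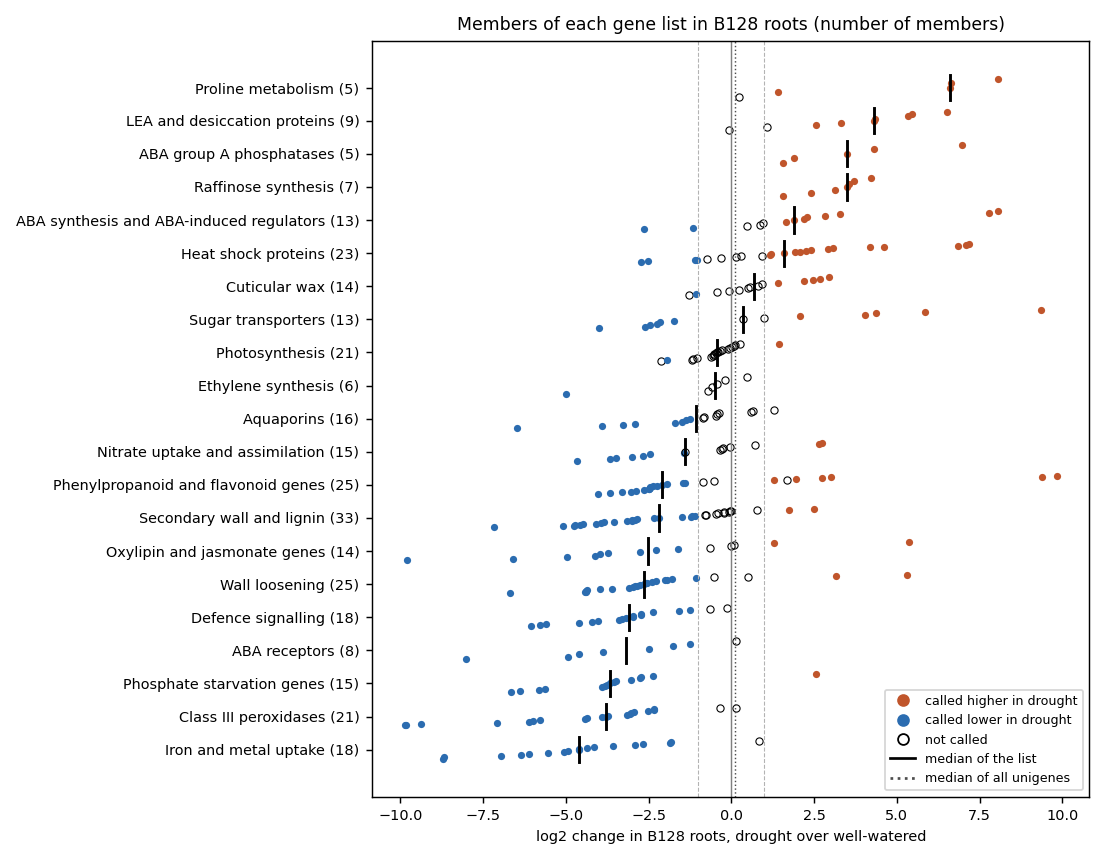
Log2 change in B128 roots, drought over well-watered, of every member of the 21 lists, with filled points for called members, open points for members not called, a bar at the median of each list and dashed lines at a 2-fold change. Proline metabolism has the highest median (6.62) and iron and metal uptake the lowest (-4.61), against 0.11 over all unigenes.

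ABA receptors and the phosphatases they bind moved in opposite directions. Of 8 receptor unigenes 7 fell and none rose (median -3.18), and 6 of the 7 in the leaf tables fell. PYL5 (UP12_29616) had 29.0, 47.7 and 30.7 in drought-stressed roots, against 11485, 9877 and 6483 in well-watered roots, a log2 change of -8.02 (SE 0.34, adjusted p = 1.8e-12). Another PYL5 unigene (UP12_29344) fell by 4.93 (SE 0.37), PYL4 (UP12_27319) by 4.60 (SE 0.41) and a further PYL5 (UP12_29343) by 3.87 (SE 0.39). PYR1 (UP12_10118) did not pass, with 7421, 7152 and 8032 in drought-stressed roots, against 5191, 7983 and 7877 in well-watered roots, groups that overlap. PYL2 (UP12_6305), at -1.25 (SE 0.32, adjusted p = 0.0033), was dim in both groups and kept its call in 4 of the 6 fits that left out an array.

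All 5 PP2C unigenes were up-regulated (median 3.49), and all were in the leaf tables. The phosphatase UP12_3728, named protein phosphatase 2C 3, had 4564, 3789 and 3685 in drought-stressed roots, against 26.0, 45.2 and 27.9 in well-watered roots, a log2 change of 6.97 (SE 0.44, adjusted p = 5.2e-10). Highly ABA-induced PP2C protein 3 (UP12_12928) had 29012, 24833 and 25987 in drought-stressed roots, against 724, 1528 and 2189 in well-watered roots, a change of 4.31 (SE 0.34). The other three changed by 3.49 for protein phosphatase 2C 56 (UP12_8966), by 1.90 for protein phosphatase 2CA (UP12_1741) and by 1.57 for a second protein phosphatase 2C 3 (UP12_14919). For all 5 the groups did not overlap.

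Of 13 unigenes for ABA synthesis and ABA-induced regulators, 8 were up-regulated and 2 down-regulated (median 1.90), with 8 and 1 of the 12 in the leaf tables. The unigene annotated AT5G52300 (UP12_17989), which in Arabidopsis is the ABA-responsive desiccation gene RD29B, had 6881, 11199 and 4892 in drought-stressed roots, against 32.1, 43.6 and 25 in well-watered roots, a log2 change of 7.79 (SE 0.36, adjusted p = 6.9e-12). ATHB-7 (UP12_5123), the close relative of ATHB-12, had 10522, 13244 and 8324 in drought-stressed roots, against 1333, 777 and 1241 in well-watered roots, a change of 3.27 (SE 0.38). All 3 unigenes for 9-cis-epoxycarotenoid dioxygenase, the enzyme that commits carotenoids to ABA, were up-regulated, by 1.90 to 2.83, and on each of them drought replicate 2 was the lowest drought array. The strongest of these, UP12_25297, had 2251, 1012 and 2322 in drought-stressed roots, against 190, 269 and 289 in well-watered roots. A second unigene for ATHB-7 (UP12_4009) did not pass, with 2875, 5905 and 2396 in drought-stressed roots, against 2418, 2383 and 2577 in well-watered roots. One of the 2 that fell, UP12_9400, annotated AT5G25610 (RD22 of Arabidopsis), had 27.0, 209 and 17.4 in drought-stressed roots, against 442, 239 and 228 in well-watered roots, a change of -2.65 (SE 0.74, adjusted p = 0.0058). It kept its call in 1 of the 6 fits that left out an array, and the kinase SRK2C (UP12_11396), the other that fell (-1.17, SE 0.29), in 4 of 6. Without drought replicate 2 only UP12_9400 was down-regulated, so the list had 8 up and 1 down.

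Unigenes for proline metabolism, raffinose synthesis and LEA proteins rose widely. Of 5 unigenes for proline metabolism 4 were up-regulated, of 7 for raffinose synthesis all 7, and of 9 for LEA and desiccation proteins 7, with none down-regulated in the 3 lists. In the leaf tables these were 4 of 5, 4 of 4 and 7 of 9. The 3 unigenes for delta-1-pyrroline-5-carboxylate synthase, the rate-limiting step of proline synthesis, changed most, and the one annotated as isoform 2 (UP12_5049) had 25054, 22206 and 25492 in drought-stressed roots, against 65.6, 103 and 112 in well-watered roots, a log2 change of 8.05 (SE 0.37, adjusted p = 6.8e-12). UP12_13800 had 15111, 14784 and 15176 in drought-stressed roots, against 152, 148 and 159 in well-watered roots (6.62, SE 0.27). UP12_22455 had 4254, 2148 and 4281 in drought-stressed roots, against 39.2, 28.0 and 37.2 in well-watered roots (6.62, SE 0.33). Pyrroline-5-carboxylate dehydrogenase (UP12_7838), which breaks proline down, was up-regulated too, with 8322, 8607 and 7463 in drought-stressed roots, against 3024, 2945 and 3126 in well-watered roots (1.42, SE 0.11). Ornithine-delta-aminotransferase (UP12_12987), a side route into proline, did not pass at 0.24 (SE 0.14, adjusted p = 0.18).

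Galactinol synthase 2 (UP12_20374), which makes the galactose donor of raffinose, had 9295, 8390 and 9636 in drought-stressed roots, against 603, 797 and 686 in well-watered roots, a log2 change of 3.72 (SE 0.34, adjusted p = 7.9e-08). The 6 unigenes for galactinol-sucrose galactosyltransferase, which joins that galactose to sucrose, changed by 1.57 to 4.22. The highest of them, UP12_14622, had 18481, 17227 and 20795 in drought-stressed roots, against 945, 1295 and 830 in well-watered roots. Among LEA proteins, LEA D34 (UP12_10245) had 2972, 2915 and 2258 in drought-stressed roots, against 24.5, 28.8 and 36.9 in well-watered roots, a change of 6.51 (SE 0.24, adjusted p = 3.5e-13). A desiccation-related protein (UP12_3078) changed by 5.46 (SE 0.36), a LEA family protein (UP12_393) by 5.34 (SE 0.29) and LEA 4-5 (UP12_6513) by 4.35 (SE 0.27). The LEA14 unigene (UP12_1784) had 5908, 8503 and 5225 in drought-stressed roots, against 5446, 7640 and 7197 in well-watered roots, and did not pass.

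Heat shock proteins, chaperones that hold unfolding proteins, moved both ways. Of 23 unigenes 14 were up-regulated and 4 down-regulated (median 1.58), and 13 and 1 of the 19 that the leaf tables hold. The 3 largest changes were small HSP20-like chaperones, and UP12_18507 had 9878, 8122 and 11673 in drought-stressed roots, against 67.2, 46.2 and 97.4 in well-watered roots, a log2 change of 7.19 (SE 0.54, adjusted p = 4.8e-09). UP12_4290 changed by 7.08 (SE 0.50) and UP12_4960 by 6.86 (SE 0.51). Not all small heat shock proteins rose, and the deepest fall of the list was in class V 15.4 (UP12_6129) at -2.74 (SE 0.28). Without drought replicate 2 the list had 15 up and 3 down. HSP70-type unigenes did not move together: a heat shock protein 70-4 (UP12_9421) rose by 2.06 (SE 0.32), another (UP12_19094) fell by 1.04 (SE 0.14), and one more (UP12_23661) did not pass at 0.30 (SE 0.12, adjusted p = 0.046). In leaves of B128 the same 23 unigenes gave 9 up and 10 down, where 6.31% of all unigenes rose and 8.35% fell. The 19 from the leaf tables, chosen for change on leaf arrays, gave 9 up and 9 down of these. Of all 2029 leaf-table unigenes 843 were up and 916 down in B128 leaves, so the leaf count is not independent evidence.

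Sugar transporters went both ways, with 5 of 13 up-regulated and 6 down-regulated, and a median of 0.36 that turned to -0.05 with the yeast entries set equal. The SWEET carriers, which pass sugars down their gradient, made up 4 of the rises, and the fifth is annotated as similar to MtN3, of the same family. One of the 4, a SWEET1 unigene (UP12_14704, 2.06, SE 0.58), kept its call in 1 of the 6 fits that left out an array, and without drought replicate 2 the list had 4 up. SWEET1 (UP12_15197) had 19427, 23160 and 17579 in drought-stressed roots, against 326, 535 and 231 in well-watered roots, a log2 change of 5.86 (SE 0.32, adjusted p = 5.2e-11). SWEET9 (UP12_18908) had 1047, 1853 and 802 in drought-stressed roots, against 84.2, 42.8 and 49.8 in well-watered roots, a change of 4.36 (SE 0.57). A second SWEET12 unigene (UP12_6225) did not pass, at 37.7, 43.9 and 44.4 in drought-stressed roots, against 14.2, 30.6 and 21.4 in well-watered roots. The 6 falls were unigenes named sugar transporters, ERD6-like carriers among them, and a sucrose carrier. Sugar transport protein 3 (UP12_9979) had 46.7, 39.9 and 45.5 in drought-stressed roots, against 1012, 427 and 793 in well-watered roots (-3.99, SE 0.27), and SUC9 (UP12_12246) had 1736, 1798 and 1718 in drought-stressed roots, against 3489, 6516 and 8683 in well-watered roots (-1.73, SE 0.33).

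Aquaporins, channels that pass water and small solutes through membranes, fell or did not pass. Of 16 unigenes 8 fell and none rose (median -1.06), and 4 of the 12 in the leaf tables fell. Without drought replicate 2 these counts were 7 and 3, since PIP2-2 (UP12_14729) lost its call (-0.84, adjusted p = 0.028). Of all leaf-table unigenes, 30.1% fell in B128 roots, so falls in 4 or 3 of the 12 did not stand out from them. None of the 12 rose, where 20.1% of all leaf-table unigenes did, and neither share was tested. The 3 members from the study's root table, chosen for their change on these arrays, all fell. NIP4-2 (UP12_6350), of the NOD26-like class, had 89.0, 75.1 and 110 in drought-stressed roots, against 12315, 6795 and 6127 in well-watered roots, a log2 change of -6.47 (SE 0.25, adjusted p = 6.1e-13). A delta tonoplast intrinsic protein (UP12_10083), a channel of the vacuole membrane, had 1123, 518 and 612 in drought-stressed roots, against 7960, 12732 and 12214 in well-watered roots (-3.92, SE 0.58). NIP6-1 (UP12_5950) had 34.8, 52.4 and 26.3 in drought-stressed roots, against 117, 130 and 1342 in well-watered roots (-2.92, SE 0.57), so its size rests on well-watered replicate 3, the array with the raised photosynthesis signal. Plasma membrane channels of the PIP class fell by at most 1.38, and PIP2-4 (UP12_4036) had 17696, 15581 and 16511 in drought-stressed roots, against 23783, 24434 and 18926 in well-watered roots, without a call (-0.42, SE 0.17). TIP1-3 (UP12_2919) lay the other way at 1.28 (SE 0.58, adjusted p = 0.077) without passing.

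Iron and metal uptake genes fell most as a list. Of 18 unigenes 17 were down-regulated (median -4.61), of which 14 came from the study's root table, and 5 of the 6 in the leaf tables fell. Fe(2+) transport protein 1 (UP12_16535), the main iron importer of the root surface in Arabidopsis, had 22.6, 19.4 and 21.8 in drought-stressed roots, against 15204, 9224 and 4880 in well-watered roots, a log2 change of -8.70 (SE 0.32, adjusted p = 2.8e-13). ZIP10 (UP12_16567), a putative metal transporter, had 13.8, 15.7 and 13.8 in drought-stressed roots, against 9997, 6590 and 3276 in well-watered roots (-8.70, SE 0.35). Both regulators of iron uptake on the list fell with them. The transcription factor ORG2 (UP12_2796) had 29.2, 53.3 and 26.8 in drought-stressed roots, against 4858, 1985 and 2353 in well-watered roots (-6.35, SE 0.33), and the FER-like iron deficiency factor (UP12_19468), which switches on iron uptake genes, had 40.7, 141 and 62.4 in drought-stressed roots, against 3589, 1638 and 1731 in well-watered roots (-4.93, SE 0.48). Zinc transporter 2 (UP12_2508) fell by 6.97 (SE 0.59), and the 3 unigenes for nicotianamine synthase 1, 3 and 4, which make a chelator that carries iron in the plant, by 5.55, 4.36 and 6.12. Nramp3 (UP12_15731), which releases metals from the vacuole in Arabidopsis, did not reach 2-fold, at 0.84 (SE 0.17). Without drought replicate 2 it was called up-regulated (1.01).

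Genes that plants raise when phosphate is short fell too. Of 15 unigenes 14 fell and 1 rose (median -3.66), and 13 of the 15 came from the root table, chosen for their change on these arrays. The list has 1 member in the leaf tables, and it is the one that rose. SPX domain protein 3 (UP12_3682), of a family of phosphate sensors, had 51.6, 132 and 56.8 in drought-stressed roots, against 7518, 6464 and 8237 in well-watered roots, a log2 change of -6.66 (SE 0.65, adjusted p = 1.7e-07). Purple acid phosphatase 17 (UP12_3619), which frees phosphate from organic compounds, had 175, 406 and 177 in drought-stressed roots, against 12449, 12846 and 14312 in well-watered roots (-5.82, SE 0.42). SPX domain-containing protein 1 (UP12_21264) fell by 6.40 (SE 0.66) and acid phosphatase type 5 (UP12_2255) changed by -5.63 (SE 0.34). Replicate 2 was the highest drought array in each of these 4, yet it stayed below every well-watered array, and the list's counts were the same without it. The exception was PHT4;4 (UP12_21787), a transporter of the plastid in Arabidopsis and not of uptake, with 1582, 1449 and 1288 in drought-stressed roots, against 139, 259 and 402 in well-watered roots (2.56, SE 0.25).

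Nitrate genes were mixed, with 2 of 15 up-regulated and 7 down-regulated (median -1.40), and 0 and 2 of the 8 in the leaf tables. Since 30.1% of all leaf-table unigenes fell in B128 roots, the falls among these 8 did not stand out. High-affinity nitrate transporter 3.1 (UP12_3349) had 4880, 6334 and 6251 in drought-stressed roots, against 43001, 35439 and 33017 in well-watered roots, a log2 change of -2.67 (SE 0.17, adjusted p = 7.5e-10). A urea transporter-like unigene (UP12_20471) fell by 4.66 (SE 0.38) and non-symbiotic hemoglobin 1 (UP12_7448), which removes nitric oxide, by 3.68 (SE 0.43). Neither nitrate reductase unigene passed, and UP12_11893 had 2770, 3015 and 4230 in drought-stressed roots, against 4909, 3974 and 3108 in well-watered roots. The 2 rises were unigenes named putative nitrite transporter (UP12_9953 and UP12_11492), at 2.74 and 2.64 (SE 0.17 each), while another of that name (UP12_27882) fell by 3.00 (SE 0.39).

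Cell wall genes fell in 3 lists. Class III peroxidases had 19 of 21 lower and none higher under drought (median -3.78), with 4 of the 6 in the leaf tables. Wall loosening enzymes had 21 of 25 lower and 2 higher under drought (median -2.63), with 11 and 2 of the 15 in the leaf tables. Secondary wall and lignin genes had 21 of 33 lower and 2 higher under drought (median -2.18), with 8 and 1 of the 19 in the leaf tables. Peroxidase 39 (UP12_18178) had 17.4, 14.9 and 15.7 in drought-stressed roots, against 15118, 9908 and 8276 in well-watered roots, a log2 change of -9.39 (SE 0.22, adjusted p = 9.9e-16). Peroxidase 52 (UP12_16084) fell by 7.09 (SE 0.69). The 2 peroxidases that did not pass were bright in both groups, and UP12_9959 had 22368, 24934 and 23253 in drought-stressed roots, against 23716, 21166 and 19626 in well-watered roots.

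Without drought replicate 2 the secondary wall list had 20 down. The cellulose synthase subunit 7 (UP12_16891), of the secondary wall complex, had 63.9, 59.0 and 72.0 in drought-stressed roots, against 1712, 3007 and 2132 in well-watered roots, a log2 change of -5.10 (SE 0.49, adjusted p = 1.4e-07). Subunit 4 (UP12_18324) fell by 4.74 (SE 0.50), laccase-4 (UP12_19909), which polymerizes lignin, by 4.71 (SE 0.45), and fasciclin-like arabinogalactan protein 12 (UP12_4905) by 7.18 (SE 1.01). MYB83 (UP12_28473), a master regulator of secondary walls in Arabidopsis, had 104, 148 and 96.4 in drought-stressed roots, against 976, 741 and 854 in well-watered roots (-2.90, SE 0.34). A putative caffeoyl-CoA O-methyltransferase (UP12_13311), of lignin precursor synthesis, fell by 2.86 (SE 0.35), and a putative cinnamoyl-CoA reductase (UP12_14472) of the same route rose by 2.49 (SE 0.15). A lignin O-methyltransferase (UP12_4906) had 20457, 20778 and 20696 in drought-stressed roots, against 19992, 22144 and 19803 in well-watered roots, a change of 0.00 (SE 0.16). A hydroxycinnamoyl transferase (UP12_8760) and cinnamyl alcohol dehydrogenase 5 (UP12_27004) did not pass either, at -0.03 (SE 0.24) and -0.09 (SE 0.16).

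Of the expansins, which loosen walls in growing cells, members moved both ways. Expansin A17 (UP12_20742) had 38.8, 26.5 and 25.7 in drought-stressed roots, against 7980, 2017 and 1827 in well-watered roots, a log2 change of -6.69 (SE 0.51, adjusted p = 6.9e-09). Expansin-like B1 (UP12_20872) had 7595, 20417 and 9065 in drought-stressed roots, against 209, 360 and 296 in well-watered roots (5.31, SE 0.42), and expansin A15 (UP12_7520) rose by 3.15 (SE 0.45). Most other members were pectin and xyloglucan enzymes, and a pectinesterase (UP12_8116) had 564, 626 and 275 in drought-stressed roots, against 7773, 10082 and 12215 in well-watered roots (-4.42, SE 0.31).

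Oxylipin and jasmonate genes, which make a wound and defence hormone from fatty acids, gave 9 falls and 2 rises among 14 (median -2.53), but 2 and 2 of the 7 in the leaf tables. Of all leaf-table unigenes 30.1% fell and 20.1% rose in B128 roots, so the falls among these 7 did not stand out. Of the 9 in the root table, chosen for change on these arrays, 8 fell. 12-oxophytodienoate reductase 1 (UP12_10313) had 28.8, 48.9 and 42.0 in drought-stressed roots, against 2994, 3966 and 4429 in well-watered roots, a log2 change of -6.59 (SE 0.36, adjusted p = 6.7e-11). A lipoxygenase (UP12_2133) fell by 4.98 (SE 0.35). Another lipoxygenase (UP12_20024) went the other way, with 2389, 2944 and 2750 in drought-stressed roots, against 72.4, 69.5 and 54.3 in well-watered roots (5.37, SE 0.39). Defence signalling genes had 16 of 18 lower and none higher under drought (median -3.08), with 8 of the 10 in the leaf tables. The membrane protein Mlo12 (UP12_2459), of a family that powdery mildew needs, fell by 6.04 (SE 0.59), the ubiquitin ligase PUB22 (UP12_14588), a brake on immune signalling in Arabidopsis, by 5.78 (SE 0.49), WRKY22 (UP12_23551) by 5.60 (SE 0.34) and syntaxin-121 (UP12_9825), which delivers secretory vesicles, by 4.62 (SE 0.46).

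Among 6 unigenes for ethylene synthesis, an ACC oxidase (UP12_522), the last enzyme of the pathway, fell, with 399, 430 and 238 in drought-stressed roots, against 18778, 8792 and 8310 in well-watered roots, a log2 change of -5.01 (SE 0.31, adjusted p = 4.5e-10). This unigene came from the root table, chosen for its change on these arrays. The other 5, which are those in the leaf tables, did not pass, and the 3 ACC synthases lay between -0.71 and -0.44.

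Phenylpropanoid and flavonoid genes gave 6 of 25 up-regulated and 16 down-regulated (median -2.11), with 4 and 9 of the 16 in the leaf tables. The 9 chalcone synthase unigenes separated into 2 that rose by over 9 log2 units, described above, and 7 that fell, with changes of -2.87 to -2.11. In the 7, drought replicate 2 was the lowest array, as for UP12_108, with 2031, 440 and 1604 in drought-stressed roots, against 8888, 6230 and 6465 in well-watered roots. Without that array 11 of the list were down-regulated, and 12 without well-watered replicate 3. Of the 16 in the leaf tables the 2 fits left 5 and 6 down-regulated, where 30.1% of all leaf-table unigenes fell. Among the 7 chalcone synthase falls, UP12_11116, UP12_11400, UP12_11946 and UP12_14338 were not called without drought replicate 2. UP12_11400 kept its call in 1 of the 6 fits that left out an array, and UP12_14338 in 2. An isoflavone reductase-type unigene (UP12_2587), of the route to legume phytoalexins, had 2157, 961 and 2160 in drought-stressed roots, against 33534, 24027 and 24172 in well-watered roots (-4.03, SE 0.36), and a dihydroflavonol reductase (UP12_28144) fell by 3.66 (SE 0.37). Phenylalanine ammonia-lyase, the entry enzyme, had 4 unigenes, of which 2 were down-regulated, at -1.94 and -1.39, and the second of these (UP12_4458) lost its call whichever of the 6 arrays was left out.

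Cuticular wax genes, which seal the surface of aerial organs, had 5 of 14 up-regulated and 1 down-regulated (median 0.69), with 4 and 1 of the 13 in the leaf tables, and several leaned on 1 array. CER1 (UP12_4568), which forms wax alkanes, had 415, 1551 and 236 in drought-stressed roots, against 54.2, 109 and 56.9 in well-watered roots, a log2 change of 2.94 (SE 0.44, adjusted p = 2.2e-05). A maize gl1 homolog (UP12_8831) had 85.8, 547 and 56.7 in drought-stressed roots, against 17.7, 29.8 and 29.1 in well-watered roots (2.48, SE 0.57). In both, replicate 2 was the highest, and without it the changes were 2.17 and 1.49. A median over the list put replicate 2 1.00 log2 units above the mean of replicates 1 and 3, and without it 4 were up-regulated and 1 was down-regulated. The fall was then in another unigene: 3-ketoacyl-CoA synthase 11 (UP12_17670) lost its call (-0.88), and 3-ketoacyl-CoA synthase 3 (UP12_22889) gained one (-1.59, adjusted p = 0.0084). The 21 photosynthesis unigenes gave 1 up and 1 down in roots, and the one that fell, photosystem II subunit P-1 (UP12_7374), was highest on well-watered replicate 3 and not called without it (-1.22, adjusted p = 0.053).

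**Figure D3:**
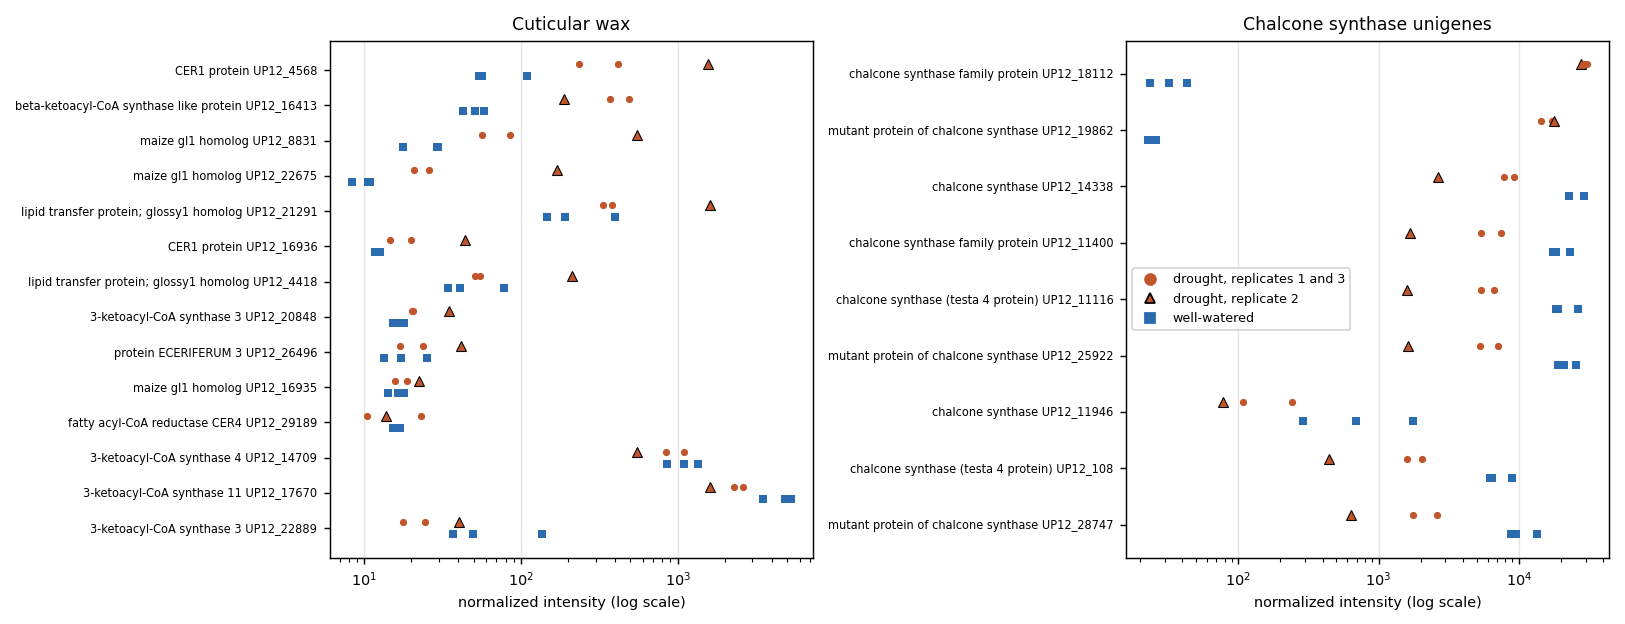
Normalized intensity (log axis) of the cuticular wax unigenes (left) and the chalcone synthase unigenes (right) in B128 roots, with drought replicates 1 and 3 as circles, drought replicate 2 as outlined triangles and the 3 well-watered arrays as squares below. Replicate 2 is the highest drought array for many wax unigenes and the lowest for the 7 chalcone synthase unigenes that fell.

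Leaves of the same line give a readout of these genes on other arrays, but the difference of the responses uses the root arrays too. The difference of the responses, root minus leaf, was called for 16.4% of unigenes, 8.44% with a higher value in roots and 7.92% with a lower one, and 14.7% of unigenes were called in leaves. Of the 3096 up-regulated root unigenes 18.7% were also up in leaves, which is 31.1% of the leaf list, and 139 were down in leaves. Of the 3310 down-regulated ones 30.5% were also down in leaves, 41.0% of the leaf list, and 173 were up.

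Several lists responded differently in leaves. Among phosphate starvation genes 14 of 15 had a lower response in roots than in leaves, where their median was -0.62, and among iron and metal genes 12 of 18 (median -1.37 in leaves). Nitrate genes were mixed, with 7 of 15 higher and 4 lower in roots. Class III peroxidases had 13 of 21 lower and 2 higher, and defence signalling 14 of 18 lower. Many members came from the root table, chosen on these root arrays, where 426 of 857 unigenes had a lower response in roots. Among leaf-table members, the lower ones were 0 of 6 peroxidases (2 higher), 2 of 6 iron (1 higher) and 6 of 10 defence unigenes. The 1 phosphate gene there was not called. Of all 2029 leaf-table unigenes, chosen on leaf arrays, 519 were lower in roots. The most negative differences among named unigenes were lipoxygenase 1 at -9.95 (SE 0.45, adjusted p = 2.4e-11), peroxidase 3 at -9.82 (SE 0.54), Fe(2+) transport protein 1 at -9.49 (SE 0.45) and peroxidase 39 at -9.29 (SE 0.31). In leaves these 4 changed by 0.15, -0.01, 0.80 and -0.10 log2 units, none of them called. On the other side stood SWEET12 (8.67, SE 0.42), the chalcone synthase unigenes UP12_19862 (8.49, SE 0.94) and UP12_18112 (8.47, SE 1.16), and a peptide transporter-like unigene (UP12_3184) at 7.32 (SE 0.56), which fell in leaves. The 3 pyrroline-5-carboxylate synthase unigenes rose in both organs and by 1.97 to 3.98 log2 units more in roots.

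Of 14 cuticular wax unigenes 10 were up-regulated in leaves, and 9 had a lower response in roots. Of 6 ethylene synthesis unigenes 4 were up in leaves (median 2.57) and 5 had a lower response in roots. Aquaporins had 12 of 16 down in leaves (median -1.91), and 5 had a higher response in roots, among them both PIP2-4 unigenes, and 3 a lower one, with NIP4-2 the lowest at -5.50. TIP1-3 differed by 6.46 log2 units, because it fell by 5.18 in leaves. Of 8 ABA receptors 6 fell in both organs, while PYL2 and PYR1 rose in leaves. PYL5 (UP12_29616) fell by 2.90 more in roots (SE 0.48, adjusted p = 0.00014), and both PYL1 unigenes fell by less in roots. Leaf-table members made up 13 of the 14 wax, 5 of the 6 ethylene, 12 of the 16 aquaporin and 7 of the 8 receptor unigenes. They were chosen for change on leaf arrays of this series, so the leaf counts are not independent evidence. Of all 2029 leaf-table unigenes 843 were up and 916 down in B128 leaves.

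**Figure D4:**
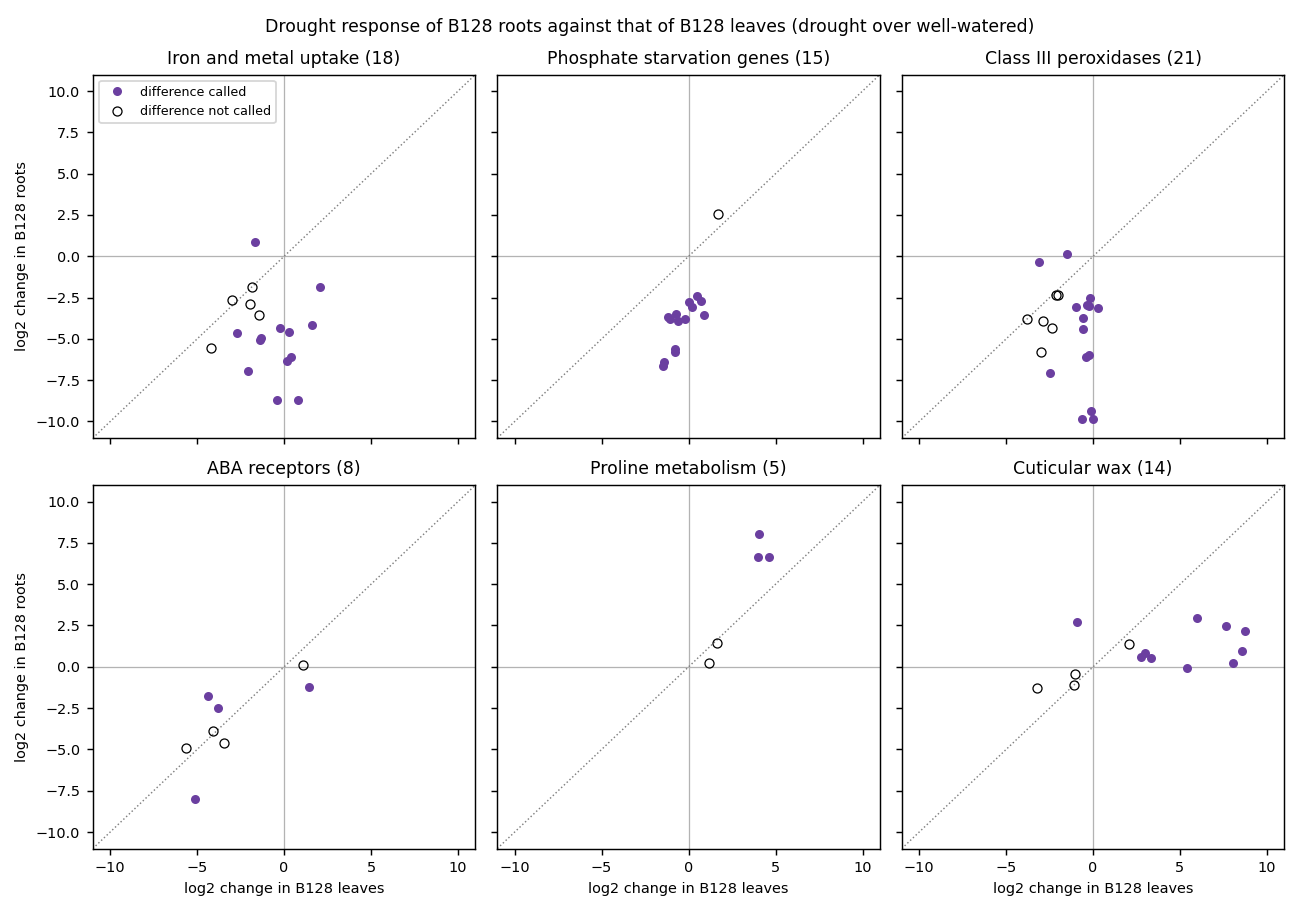
Log2 change in B128 roots (vertical axis) against that in B128 leaves (horizontal axis), drought over well-watered, for 6 lists, with filled points where the difference of the responses was called and a dotted line of equal response. Phosphate starvation genes and peroxidases lie below the line with leaf changes near 0 for many members, while most cuticular wax members lie to its right.

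Unigenes at a high level in roots were also looked at apart from the lists. Of the 1175 unigenes at least 4 log2 units higher in well-watered B47 roots than leaves, arrays that the B128 root comparison does not use, 588 (50.0%) fell and 36 (3.06%) rose in B128 roots, with a median change of -1.39, where 11.2% of all unigenes fell and 10.5% rose. They were picked for a high root level, which leaves more room to fall, so the shares are a description without a test.

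The response of B128 roots differed from that of B47 roots in few unigenes. The difference, B128 minus B47, was called for 94 unigenes (0.319%), 28 of them positive (0.095%) and 66 negative (0.224%), while 2695 had an unadjusted p under 0.05. In B47 roots 22.5% of unigenes were called, 10.9% up and 11.6% down. The description of the drought-stressed B47 root arrays also says leaves, and the organ check was not run on them. None of the ABA receptor, PP2C, LEA, proline, raffinose, iron, phosphate or peroxidase unigenes was among the 94. With 0.319% of all unigenes called, none among lists this small says little about them. Of these lists, 14 of 18 iron, 13 of 15 phosphate and 18 of 21 peroxidase unigenes came from the root table. They were chosen as changed in roots of both lines, so their absence is not independent evidence of a like response. Both lines were sampled after the same number of days without water. The paper reports a significantly higher leaf relative water content in stressed B47 than in stressed B128 at that time, with similar controls. The line and the degree of water loss therefore cannot be told apart. A difference that fails the threshold does not show that the lines responded alike.

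Of the 94, 52 were called in B128 roots and 42 were not, and 39 of the 42 were called in B47 roots. ATG12A (UP12_25623), a ubiquitin-like protein of autophagy, had 9526, 8823 and 9971 in drought-stressed B128 roots, against 8067, 8198 and 8009 in well-watered B128 roots. In B47 it averaged 12.77 ± 0.20 log2 units in drought-stressed roots and 3.70 ± 0.60 in well-watered roots (SD, n = 3), and the difference between the lines was -8.86 (SE 0.41, adjusted p = 1.6e-10). B128 roots were thus bright for it in both treatments. For non-specific lipid-transfer protein 4 (UP12_7902) it was the reverse, with 14.6, 16.6 and 15.8 in drought-stressed B128 roots, against 20.6, 15.3 and 16.6 in well-watered B128 roots, while B47 averaged 13.62 ± 0.16 and 5.71 ± 0.54 log2 units. The difference was -8.06 (SE 0.37, adjusted p = 1.6e-10), and -7.73 (SE 0.54) for a second unigene of that name (UP12_17175), which was likewise dark in B128. A lectin receptor kinase (UP12_20208) differed by -4.16 (SE 0.40).

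Lipoxygenase 1 was the member of the lists with the deepest fall in B128 that also differed between lines (-3.17, SE 0.45, adjusted p = 0.00094), because it fell by 9.80 in B128 and by 6.63 in B47. Nitrate transporter 1.1 (UP12_20462) had 148, 78.5 and 121 in drought-stressed B128 roots, against 478, 319 and 185 in well-watered B128 roots, and its fall of 1.44 in B128 was 2.53 smaller than in B47 (SE 0.43, adjusted p = 0.0053). GATA transcription factor 6 (UP12_14082) had 2872, 2789 and 2844 in drought-stressed B128 roots, against 1008, 1659 and 1144 in well-watered B128 roots, and differed by 1.23 (SE 0.22, adjusted p = 0.0092). Flavonoid 3'-monooxygenase (UP12_4184) differed by 1.72 (SE 0.28), at 0.85 in B128, and hydroxysteroid dehydrogenase 1 (UP12_12849) by 3.14 (SE 0.57), at -0.03 in B128. For neither of these was the B128 change called. Each of these 4 positive differences lost its call when some single arrays were left out, while ATG12A, both lipid-transfer protein 4 unigenes and the lectin receptor kinase kept theirs in each such fit. Of the 3 flavone synthase unigenes, all up-regulated in B128 roots, 2 (UP12_6363 and UP12_27325) rose by less in B128, by 1.95 and 2.75, against 3.94 and 5.01 in B47.

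**Figure D5:**
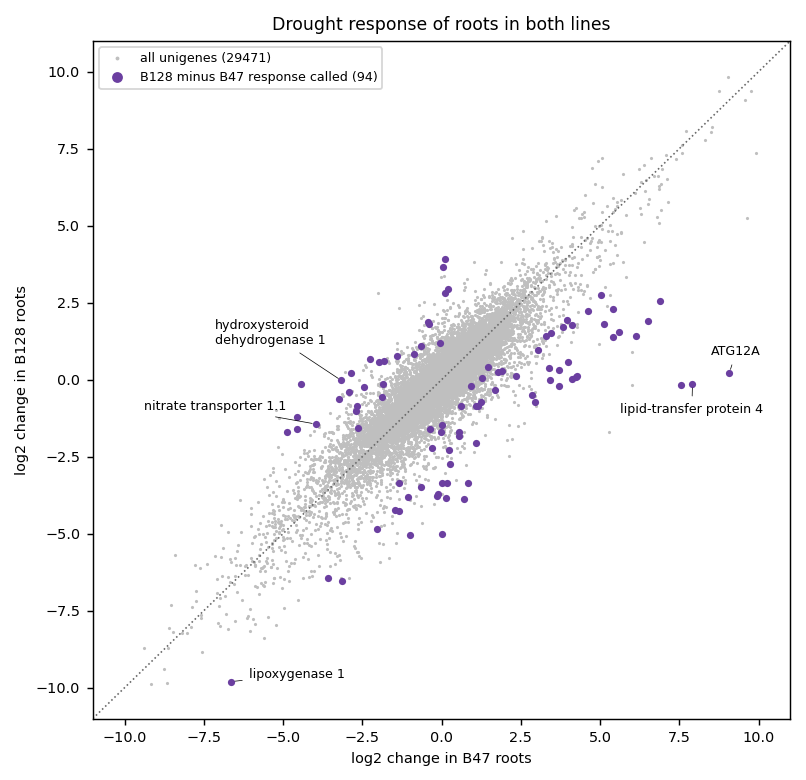
Log2 change in B128 roots (vertical axis) against that in B47 roots (horizontal axis), drought over well-watered, for all 29471 unigenes in grey, with the 94 unigenes whose responses differed between lines in colour and a dotted line of equal response. Most coloured points lie below the line, and ATG12A and the lipid-transfer protein 4 unigenes lie near 0 for B128 and above 7 for B47.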

How the data were processed

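Total RNA of B128 and B47 leaves and roots was hybridized to 24 custom NimbleGen 1-colour arrays of cowpea unigenes. The authors extracted the spot intensity with NimbleScan, quantile-normalized the probes and summarized 4 probes per unigene by RMA, and the deposited tables give the normalized intensity, not logged, of 29471 unigenes plus 8 entries of yeast sequence. Because quantile normalization makes the arrays alike in distribution, a change shared by most transcripts would not appear. The scanner signals and detection calls were not used here, so the precision of a value is limited by the number of arrays.

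Values ran from 4.52 to 60814 and were taken as log2 with no pseudocount and no filter. Group means were fitted to all 24 arrays together with limma 3.58.1 (R 4.3.3, Python 3.11.15; 16 residual and 2.88 prior degrees of freedom), and p-values were adjusted by Benjamini-Hochberg over all unigenes. A gene set or a list was given no test. The script was tested on simulated data. Groups followed the source labels. Protein names came from the annotation columns of the study's gene tables, and 0 unigenes matched the RefSeq table, so no sequence is shown. The authors' own fold changes and p-values in those tables were not used. Members and lists were chosen with earlier results of these data known. Named unigenes were the 12 largest rises and 12 largest falls with a protein name and no overlap, 1 per name, the 2 largest each way over all unigenes, up to 4 largest and 2 smallest changes of each list and the 4 largest of each difference each way. Other unigenes named in the text were chosen after their values were seen. Alternatives were the arrays in the fit, the prior, array weights, blocks, a filter on the dimmest 25%, 3 scalings, the thresholds and leaving out each array.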

Additional observations from a re-analysis of the deposited data

Results flagged for a closer look

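Differences between lines and organs in the response of B128 roots were tested by interaction terms. The B128 root response differed from the B47 root response for 94 unigenes. Among named unigenes, the largest positive values of B128 minus B47 were hydroxysteroid dehydrogenase 1 (3.14), nitrate transporter 1.1 (2.53), flavonoid 3'-monooxygenase (1.72) and GATA transcription factor 6 (1.23). The most negative were ATG12A (-8.86), the lipid-transfer protein 4 unigenes UP12_7902 (-8.06) and UP12_17175 (-7.73), and a lectin receptor kinase (-4.16). The B128 root response differed from the B128 leaf response for 4821 unigenes. Root minus leaf was most positive for SWEET12 (8.67), the chalcone synthase unigenes UP12_19862 (8.49) and UP12_18112 (8.47), and the peptide transporter-like UP12_3184 (7.32). It was most negative for lipoxygenase 1 (-9.95), peroxidase 3 (-9.82), Fe(2+) transport protein 1 (-9.49) and peroxidase 39 (-9.29).

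The yeast control entries, which take no part in the comparisons, lay 0.40 log2 units higher in drought-stressed than in well-watered B128 roots. Their means were 15.21, 14.86 and 15.19 in drought-stressed roots, against 14.70, 14.80 and 14.55 in well-watered roots.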

How the results depend on the processing

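In B128 roots 3096 unigenes were called up and 3310 down. Counts stayed within 1.5 times of these in fits of 12 or 6 arrays, with an intensity trend, array weights, a pot or replicate block, an FDR of 0.05, the dimmest 25% removed or other quantile and median scalings. Without moderation 396 were up and 628 down, and against a tested fold change of 2 the counts were 587 and 1203. With the yeast entries set equal they were 1508 and 5170, because every change shifts by 0.40. Leaving out single arrays gave 2670 to 3419 up and 2969 to 3456 down. Of the 251 members and named unigenes called, 227 were called in all 6 of these fits. No named unigene called in B128 roots changed sign under the alternatives run, and 92 of the 141 named unigenes were tested without the dimmest 25%. Some named unigenes that were not called crossed 0 when an array was left out, such as PYR1 (-0.08 to 0.24) and LEA14 (-0.27 to 0.08).

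For the line difference (28 positive, 66 negative) the counts were 17 and 31 with 12 arrays, 2 and 8 without moderation, 825 and 923 with array weights, 83 and 163 at an FDR of 0.05, 2 and 10 against a fold change of 2, 9 and 26 without the dimmest unigenes, and 18 positive with the yeast entries equal. The array weights did not converge, at 11.72 for drought replicate 1 and 0.20 for replicate 2, so their counts are uncertain. Leaving out single arrays gave 11 to 58 positive and 32 to 91 negative. These counts moved by over 1.5 times without B128 drought replicate 1 (11 and 36), without B47 well-watered replicates 1 (58 positive), 2 (15 and 34) and 3 (12 and 32), and without B47 drought replicates 2 (14 and 39) and 3 (16 positive), so the number of unigenes that differ between lines is the least stable count.

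For the organ difference (2487 higher, 2334 lower in roots) the counts were 993 and 1138 without moderation, 463 and 721 against a fold change of 2, and 1240 and 3899 with the yeast entries equal. Single arrays left out gave 2009 to 2785 higher and 1985 to 2570 lower. Without moderation 31 list members were up and 90 down, and the number of named unigenes called was 60, against 97 as reported. It was 61 without the dimmest 25% of unigenes, where fewer named unigenes were tested. Leaving out single arrays gave 66 to 73 members up, 159 to 167 down and 95 to 99 named unigenes called. Replicate numbers are shared between groups, and same-numbered drought and well-watered B128 roots deviated at r = -0.03, -0.40 and -0.34, so they were not paired. Same-numbered B128 and B47 roots deviated at r = -0.22, 0.42 and 0.57 under drought and at 0.39, -0.11 and 0.33 when well-watered. Some of these arrays thus deviated together across lines, and the reason was not tested. A replicate block gave 3086 up and 3328 down, 23 and 51 for the line difference and 2437 and 2281 for the organ difference. The cause of the other shifts was not tested. Depth is not defined for arrays, and 3 arrays per group limit the precision.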

Other observations

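Drought replicate 2 lay at least 2 log2 units above the mean of replicates 1 and 3 for 164 unigenes and below it for 110, and 123 of these were called in B128 roots. Among named unigenes above the mean, MLP-like protein 28 (UP12_5260) stood 5.18 log2 units higher, a SAUR-like auxin-responsive protein (UP12_10988) 4.13 and a lipid-transfer protein 6 (UP12_3833) 3.53. Below the mean, a DEMETER protein (UP12_14843), a DNA glycosylase in Arabidopsis, stood at -3.81, and a tryptophan aminotransferase-related protein 4 (UP12_8313) at -3.41. By list, the median deviation was 1.00 for cuticular wax and 0.87 for phosphate starvation genes. Without this array 3419 unigenes were up and 3456 down in B128 roots, of which 2849 and 3024 were among those called with it. These unigenes were chosen after their values were seen.

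The share of called unigenes differed with signal. With unigenes in 4 equal classes of mean intensity, from the dimmest to the brightest, 12.0%, 16.1%, 9.50% and 4.38% were up-regulated and 14.7%, 15.6%, 8.77% and 5.80% down-regulated in B128 roots.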
